A study of Homo sapiens with 66 samples.

Results

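The genes described here are 8 members of the SLC7 and SLC3 families of amino acid transporters: SLC7A1, SLC7A2, SLC7A5, SLC7A6, SLC7A7, SLC7A8, SLC7A11 and SLC3A2. They were listed by symbol and matched to 8 of the 58721 Ensembl gene IDs of the deposited tables. They were chosen by name with earlier measured differences between these groups known, and the choice used no threshold or single contrast. Counts over the 8 genes therefore describe them and do not stand as evidence about the family, and the p-values, from fits over all genes, describe each difference. All 8 passed the filter on low counts in all 3 experiments.

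SLC7A1 and SLC7A2 carry arginine and other cationic amino acids on their own. SLC7A5, SLC7A6, SLC7A7, SLC7A8 and SLC7A11 are light chains that reach the plasma membrane when linked to a heavy chain, the single-pass glycoprotein encoded by SLC3A2. With SLC3A2, SLC7A5 exchanges glutamine for leucine and other large neutral amino acids that feed mTORC1, and SLC7A11 imports cystine in exchange for glutamate for the synthesis of glutathione, both of which are much studied in tumour cells including melanoma.

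The study sequenced poly(A) RNA of the BRAF-mutant human melanoma line A375 in 66 libraries that form 22 groups of 3 in 3 experiments. In the first, cells with a control guide against GFP (wild type), or with guide 1 or guide 2 against MED12, MED19 or MED23, were kept for 24 h in DMSO or in 1 µM vemurafenib, an inhibitor of mutant BRAF. MED12, MED19 and MED23 are subunits of the kinase, middle and tail modules of Mediator, which links transcription factors to RNA polymerase II. In the second, cells with the GFP guide or with MED23 guide 1 carried either a SOX10 overexpression vector or the empty vector (SOX10 is a melanocyte-lineage transcription factor); the third compared control, HDAC3 knockout, MED23 knockout and double knockout cells (the columns headed GFP in that table were taken as the control, the only group left unmatched), where HDAC3 is the deacetylase of a corepressor complex. No drug is given for the last 2 experiments. The labels do not say whether knockout cells were pools or clones, nor whether replicates were separate cultures, so p-values measure only the spread between libraries. The 3 experiments are batches 1, 2 and 3 in the labels, and all comparisons were made within one of them.

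Total counts per library ran from 65.9 M to 212 M (M, mega) in the Mediator experiment, from 24.9 M to 30.8 M in the SOX10 experiment and from 58.8 M to 106 M in the HDAC3 experiment. In DMSO the targeted mRNA stood at 24.2% of control for MED12, 48.1% for MED19 and 46.1% for MED23. MED23 stood at 51.8% in the SOX10 experiment and at 47.6% in the HDAC3 experiment, where HDAC3 stood at 51.0%. These mRNA levels do not measure how much of each protein was lost. SOX10 counts with the overexpression vector were 114% of the empty vector level in control cells and 174% in MED23 knockout cells. Against control cells with the same vector, MED23 knockout cells had 46.9% of the SOX10 counts with the empty vector and 71.5% with the overexpression vector. In the Mediator experiment in DMSO, SOX10 stood at 15.6% of control after MED12 loss, 61.65% after MED19 loss and 37.2% after MED23 loss. The summed level of 10 melanocytic markers lay between 311 and 3370 CPM across the Mediator libraries. The summed levels of 5 blood cell, 4 epithelial and 3 endothelial markers were at most 2.91, 18.6 and 6.65 CPM there. Because these are bulk samples, fewer expressing cells and less RNA per cell cannot be told apart.

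Levels are given as CPM, the count of a gene relative to the total of its library after scaling for composition, as mean ± SD of 3 libraries. Levels of different genes are compared only per kilobase of annotated exon. Changes are given on the log2 scale with their SE, by edgeR's quasi-likelihood test, fitted to all genes of an experiment, with Benjamini-Hochberg adjusted p-values over all of them. Intervals of 95% were taken from this SE with the normal quantile and are approximate. A gene is said to have risen, fallen or changed at an adjusted p under 0.05, without a minimum fold. Both guides of a Mediator subunit were weighted equally. The SE and p-values hold the spread between libraries of a group and leave out that between the 2 guides. An interaction is the difference between a change in one background or treatment and the same change in the other.

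SLC7A5 mRNA was the most abundant of the 8 transporter mRNAs in untreated control cells. Per kilobase, in control cells in DMSO, SLC7A5 stood at 153 ± 7.10 CPM, SLC3A2 at 48.2 ± 2.01, SLC7A1 at 31.5 ± 0.805 and SLC7A11 at 10.7 ± 0.368. SLC7A6 and SLC7A2 followed at 4.38 ± 0.0865 and 4.34 ± 0.180, and SLC7A8 and SLC7A7 were far lower at 0.530 ± 0.0291 and 0.0996 ± 0.0230. Of the summed per-kilobase level of the 5 light chains, SLC7A5 made up 90.6% ± 0.589 and SLC7A11 6.37% ± 0.440 in these libraries. In the control cells of the SOX10 and HDAC3 experiments SLC7A5 made up 91.0% ± 0.298 and 89.0% ± 0.463.

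Vemurafenib changed all 8 transporter mRNAs in control cells, 6 downward and 2 upward, where 66.2% of the 27453 genes tested changed (30.3% lower and 35.8% higher). The median of the 8 log2 fold changes was -0.53, beside a median of 0.11 over all genes. Changes of at least 2-fold were seen for 5 of the 8, against 29.7% of all genes: SLC7A1, SLC7A2 and SLC7A11 fell, and SLC7A7 and SLC7A8 rose. Of the 10 melanocytic markers 10 rose with the drug, as did 3 of 4 epithelial markers, whose part in these changes was not tested. The plot of levels in the Mediator experiment shows these opposite movements library by library.

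**Figure D1:**
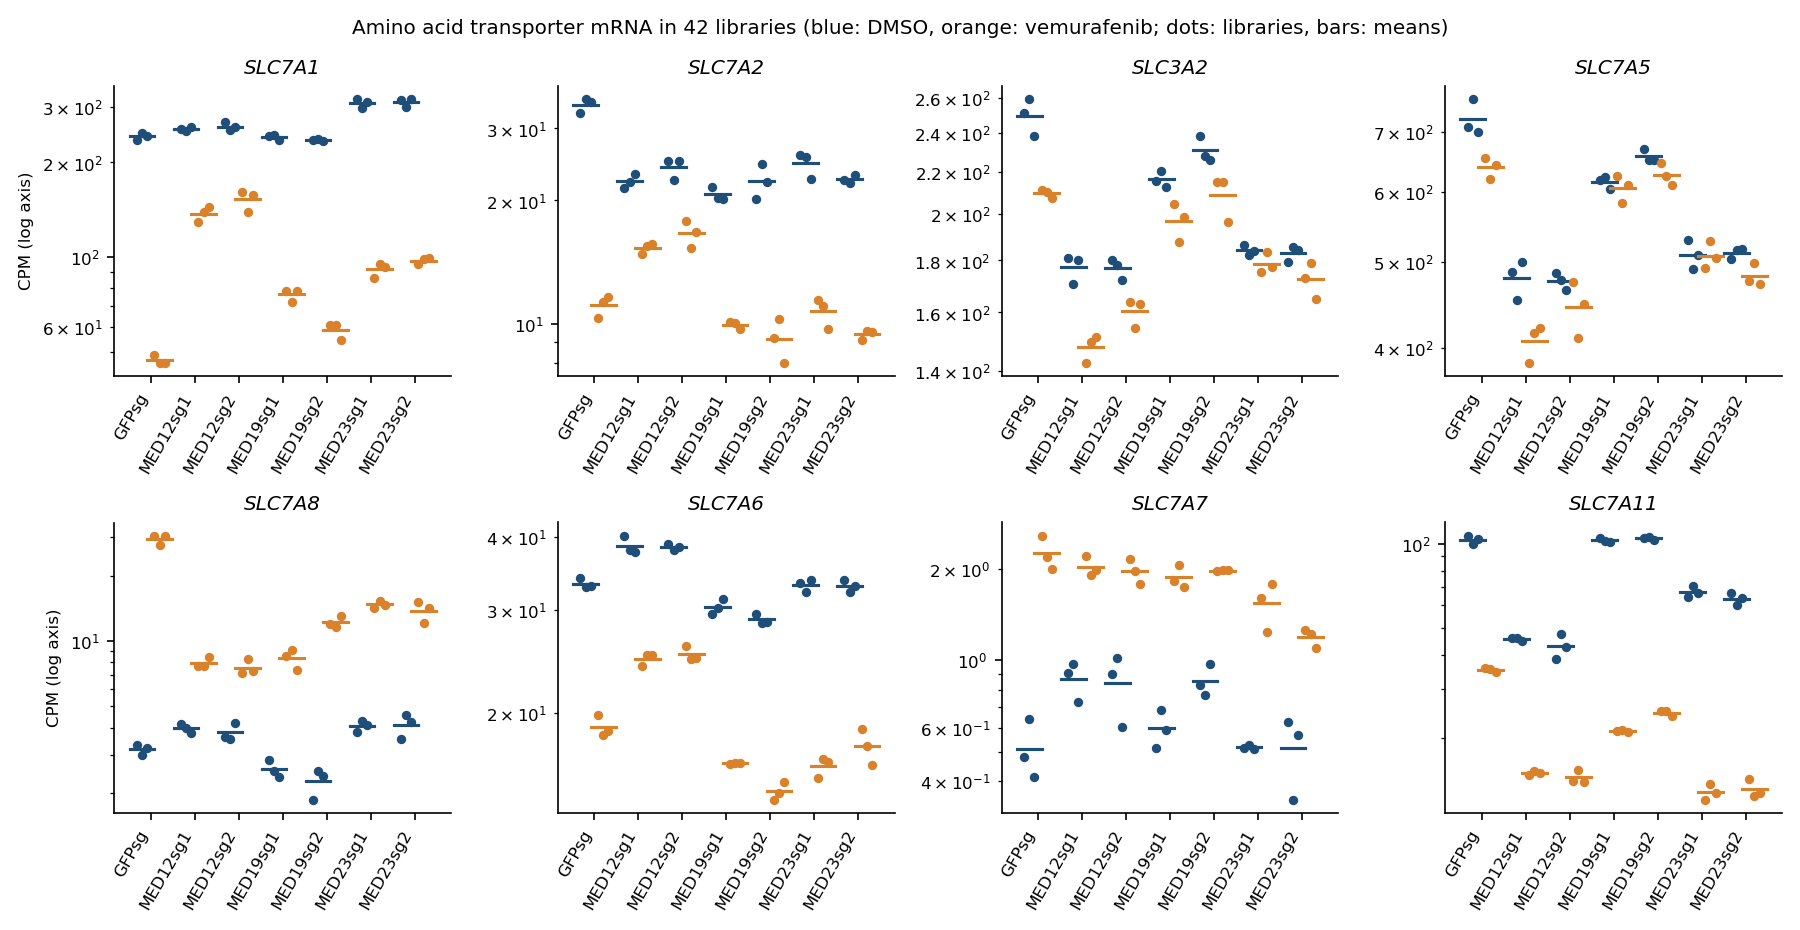
CPM of the 8 transporter genes (1 panel each, log axis) in the 42 libraries of the Mediator experiment, by guide, in DMSO (blue) and in vemurafenib (orange); dots are libraries and bars are means of 3. SLC7A1 and SLC7A11 lie lower and SLC7A8 higher in vemurafenib under every guide, while SLC7A5 and SLC3A2 differ more between guides than between treatments.

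Counted over the 8 genes, MED12 knockout in DMSO changed 8 (54.9% of all genes tested changed), MED19 knockout 6 (40.6%) and MED23 knockout 6 (36.9%). In vemurafenib the counts were 7 for MED12 (62.2%), 5 for MED19 (43.7%) and 7 for MED23 (47.3%). The interaction with the drug passed for 5 genes for MED12 (49.0%), 7 for MED19 (32.6%) and 8 for MED23 (34.8%). In the SOX10 experiment 18009 genes were tested. SOX10 overexpression changed 6 of the 8 in control cells (22.6%) and 5 in MED23 knockout cells (41.9%), and MED23 loss changed 5 with the empty vector (43.4%) and 6 with SOX10 overexpression (32.4%), with an interaction for 5 (14.7%). In the HDAC3 experiment, HDAC3 loss changed 6 in control cells (42.1%) and 6 in MED23 knockout cells (38.0%), MED23 loss 6 (24.3%) and both losses 6 (36.6%), with an interaction for 5 (20.5%). The MED12, MED19 and MED23 comparisons within a treatment share the control libraries, as do the interactions.

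**Figure D2:**
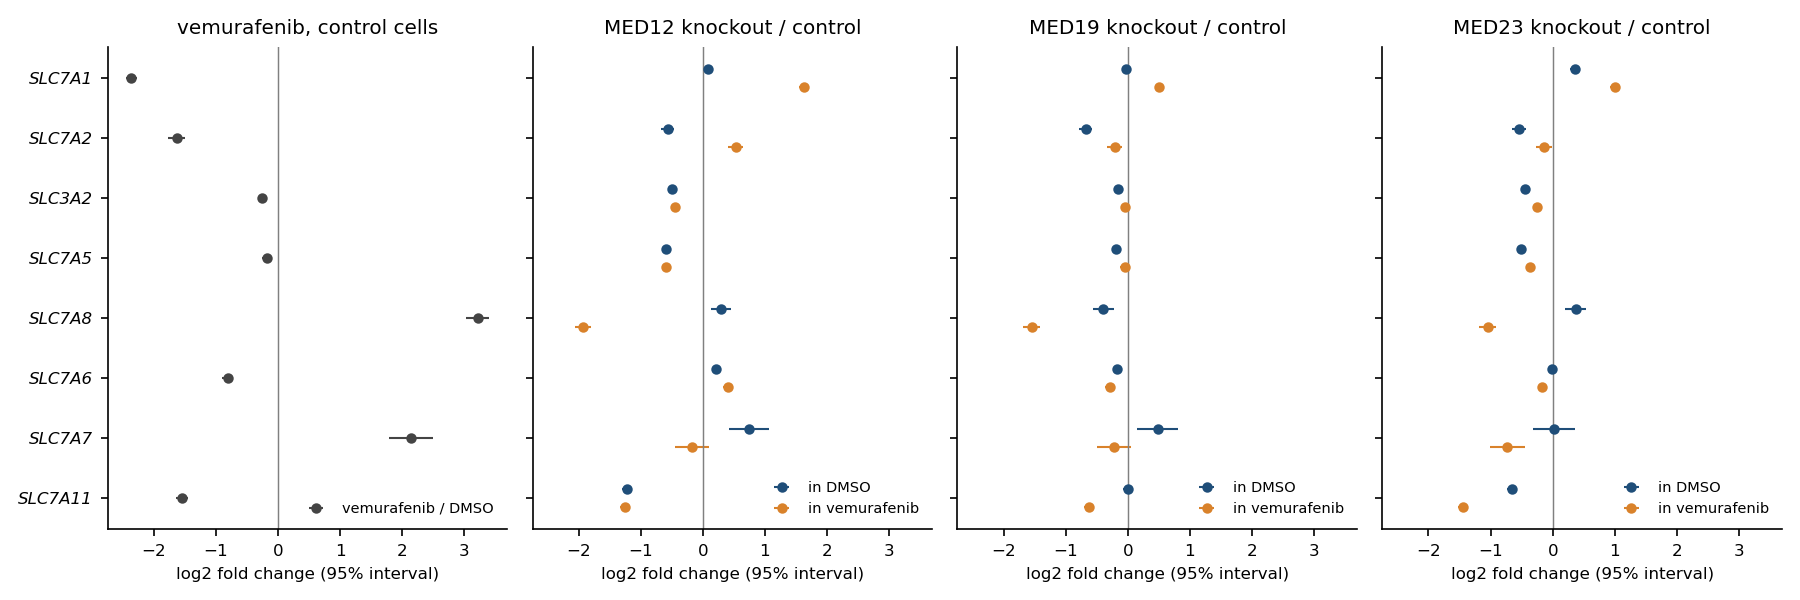
Log2 fold changes with 95% intervals of the 8 genes in the Mediator experiment: vemurafenib against DMSO in control cells (left), and knockout against control for MED12, MED19 and MED23 in DMSO (blue) and vemurafenib (orange). SLC7A1 moves right and SLC7A8 left in the drug for all 3 subunits, and SLC7A11 lies left of 0 for MED12 and MED23 in both.

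Of the cationic amino acid transporters, SLC7A1 (ENSG00000139514, chromosome 13, 29509410 to 29595688, minus strand, GRCh38) showed the larger drop with the drug. Its 3 control libraries in DMSO had 236, 248 and 243 CPM and those in vemurafenib 49.0, 46.0 and 46.2 CPM. The groups lay far apart, a 5.14-fold lower level with the drug (-2.36 ± 0.045, adjusted p = 8.9e-41). In MED12 knockout cells the drug left more of this mRNA: guide 1 libraries had 129, 139 and 144 CPM and guide 2 libraries 162, 139 and 157 CPM. All 6 were above every control library in the drug, and the difference was 1.62 ± 0.040, adjusted p = 1.0e-35. MED23 knockout libraries in vemurafenib had 86.1, 95.5, 93.3, 94.9, 98.4 and 99.2 CPM (1.01 ± 0.040, adjusted p = 6.4e-27). MED19 knockout libraries had 78.1, 72.2 and 78.2 CPM with guide 1 and 61.1, 61.0 and 54.6 with guide 2 (0.51 ± 0.039, adjusted p = 9.3e-16). These were also above the control libraries, with guide 1 above guide 2 and no overlap between them. In the order of the 14 group means, 6 of 13 neighbouring groups overlapped, and the highest mean was 6.60 times the lowest.

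Expressed against the same guide in DMSO, SLC7A1 in vemurafenib stood at 19.4% in control cells. It stood at 53.8% and 58.7% with the MED12 guides, 31.7% and 25.0% with the MED19 guides, and 29.6% and 31.4% with the MED23 guides. The interaction passed for all 3 subunits, at 1.53 ± 0.053, adjusted p = 2.4e-29 for MED12, 0.53 ± 0.053, adjusted p = 7.4e-12 for MED19 and 0.65 ± 0.053, adjusted p = 1.3e-14 for MED23. These 3 tests use the same control libraries. By guide the MED19 interaction of SLC7A1 was 0.70 with guide 1 and 0.36 with guide 2 (adjusted p = 9.4e-14 and 5.6e-06). In DMSO, SLC7A1 was higher in MED23 knockout cells (318, 298, 312, 315, 299 and 318 CPM, 0.36 ± 0.036, adjusted p = 1.2e-11), and all 6 libraries lay above the control libraries. MED12 loss in DMSO gave 0.091 ± 0.036, adjusted p = 0.0291, a call that was lost with DESeq2's size factors (0.07, adjusted p = 0.111), its Wald test (adjusted p = 0.121), guide 1 alone (adjusted p = 0.115), or any 1 library left out except replicate 2 of the control or of guide 2 (adjusted p up to 0.149). MED19 loss gave -0.024 ± 0.036, adjusted p = 0.651, with a 95% interval of -0.095 to 0.047.

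SLC7A1 was also lower with SOX10 overexpression, in control cells (from 239.8, 241 and 233 to 192, 184 and 184 CPM; -0.35 ± 0.031, adjusted p = 3.1e-10) and in MED23 knockout cells (from 265, 259 and 257 to 188, 184 and 180.3 CPM; -0.50 ± 0.031, adjusted p = 3.8e-14). Neither pair of groups overlapped. MED23 loss raised SLC7A1 in empty-vector cells (0.13 ± 0.030, adjusted p = 7.4e-04). It did so in the HDAC3 experiment as well (0.22 ± 0.043, adjusted p = 5.4e-04). In the latter experiment its 4 group means spanned only 178 to 223 CPM. HDAC3 loss gave -0.11 ± 0.043, adjusted p = 0.0514 in control cells and -0.28 ± 0.043, adjusted p = 2.0e-05 in MED23 knockout cells. The former lay close to the threshold and passed in 4 alternatives. Among these was a fit with replicate number as a block (-0.11, adjusted p = 0.0115). The call was also made without replicate 1 of the HDAC3 knockout (-0.14, adjusted p = 0.0162).

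The RefSeq promoter window of SLC7A1 (GRCh38.p14, minus strand), from 250 bases before to 50 bases after the transcription start, was searched on both strands for 3 motifs. These were TGATGNAA, the core of the amino acid response element bound by ATF4 with C/EBP proteins, TGACNNNGC, the antioxidant response element bound by NRF2, and the E-box CACGTG, bound by MYC and MITF among others. RefSeq windows of 6 of the 8 genes were searched (SLC7A1, SLC7A5, SLC7A6, SLC7A7, SLC7A8 and SLC3A2), 13 windows in all. No window of SLC7A2 or SLC7A11 was searched, so whether they hold these motifs was not tested. Of all 35116 windows in the table, 3.62% held TGATGNAA, 13.3% TGACNNNGC and 7.26% CACGTG. Of the 13 windows here, 2 held the first (in SLC7A1 and SLC3A2), 5 the second and 3 the last, and no match overlapped another. By gene these were 2, 5 and 3 of the 6. SLC7A7, SLC7A8 and SLC3A2 have several windows each, and 2 of those of SLC7A8 share bases, so the 13 are not separate promoters. The 2 matches to TGATGNAA are shown because the motif is rare and the genes are induced by amino acid shortage in other cells. The SLC7A1 match begins 8 bases after the start, in the stretch chr13:29595663-29595692 (minus strand), and the SLC3A2 match, on the opposite strand of the gene as TTNCATCA, lies in the stretch chr11:62881719-62881748 (plus strand). The motif is in capitals, 5′ to 3′.
SLC7A1: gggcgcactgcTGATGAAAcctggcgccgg
SLC3A2: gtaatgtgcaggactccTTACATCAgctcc
A match is only a match of letters and says nothing of binding in these cells.

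SLC7A2 (ENSG00000003989, chromosome 8, 17497088 to 17570573, plus strand), the other cationic transporter, fell with vemurafenib from 32.7, 35.4 and 34.8 to 10.3, 11.3 and 11.6 CPM in control cells (-1.63 ± 0.068, adjusted p = 1.2e-26). The control libraries in DMSO were the highest of the Mediator experiment, and loss of each subunit lowered the gene there: -0.56 ± 0.054 for MED12, -0.68 ± 0.054 for MED19 and -0.54 ± 0.054 for MED23 (adjusted p = 7.1e-13, 6.4e-15 and 6.4e-12). In the drug the sign of the MED12 difference turned: MED12 knockout libraries had 14.8, 15.5, 15.7, 17.9, 15.3 and 16.7 CPM, all above the control libraries (0.53 ± 0.060, adjusted p = 9.8e-11). The MED12 interaction was 1.09 ± 0.081, adjusted p = 2.0e-16. MED19 knockout in the drug gave -0.21 ± 0.062, adjusted p = 0.00358, a call that was lost with guide 1 alone (-0.16, adjusted p = 0.0674). MED23 knockout gave -0.14 ± 0.063, adjusted p = 0.0631, passing with guide 2 alone (-0.23, adjusted p = 0.00861) and without replicate 1 of the control (-0.19, adjusted p = 0.0261) or of guide 1 (-0.16, adjusted p = 0.041). In the SOX10 experiment SLC7A2 went the other way from SLC7A1: overexpression raised it from 29.5, 28.4 and 26.4 to 36.8, 36.7 and 36.8 CPM in control cells (0.39 ± 0.048, adjusted p = 2.3e-07) and from 21.4, 19.7 and 21.2 to 31.3, 29.8 and 29.5 CPM in MED23 knockout cells (0.54 ± 0.052, adjusted p = 6.3e-10). HDAC3 loss lowered it (-0.60 ± 0.056, adjusted p = 1.2e-08), and the double knockout was the lowest of its experiment at 15.9, 16.5 and 16.5 CPM, beside 29.2, 30.4 and 28.6 in control (-0.85 ± 0.057, adjusted p = 8.5e-11).

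SLC3A2, the heavy chain (ENSG00000168003, chromosome 11, 62856102 to 62888875, plus strand), and SLC7A5, its most abundant light chain (ENSG00000103257, chromosome 16, 87830023 to 87869488, minus strand), moved by similar amounts in most comparisons. In DMSO, control libraries had 709, 763 and 701 CPM of SLC7A5. MED12 knockout libraries had 487, 453, 499.9, 486, 477 and 465 CPM (-0.60 ± 0.033, adjusted p = 1.2e-21) and MED23 knockout libraries 529, 491, 509, 504, 516 and 517 CPM (-0.50 ± 0.033, adjusted p = 2.9e-18). All 12 lay below every control library. SLC3A2 in the same control libraries was 251, 259 and 239 CPM, against 171 to 181 CPM over the 6 MED12 knockout libraries (-0.50 ± 0.029, adjusted p = 2.6e-20) and 179 to 186 over the 6 MED23 knockout libraries (-0.44 ± 0.029, adjusted p = 5.3e-18). Again the groups did not overlap. MED19 loss had smaller effects, -0.19 ± 0.033, adjusted p = 5.2e-06 for SLC7A5 and -0.16 ± 0.029, adjusted p = 1.1e-05 for SLC3A2.

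Vemurafenib moved this pair little beside the other transporters, by -0.18 ± 0.038, adjusted p = 5.3e-05 for SLC7A5 (to 654, 621 and 643 CPM) and -0.25 ± 0.034, adjusted p = 7.0e-09 for SLC3A2 (to 211, 210.1 and 207 CPM). In the drug, MED12 knockout kept both lower (-0.59 ± 0.033 and -0.44 ± 0.029), as did MED23 knockout (-0.37 ± 0.033 and -0.26 ± 0.030), whereas with MED19 knockout neither passed (-0.052 ± 0.033 and -0.047 ± 0.030; adjusted p = 0.214 and 0.208). For SLC3A2 the MED19 difference passed with guide 1 alone (-0.090, adjusted p = 0.0302) and was -0.0050 with guide 2 (adjusted p = 0.934). The MED12 interactions did not pass, with 95% intervals of -0.080 to 0.10 for SLC7A5 and -0.030 to 0.13 for SLC3A2.

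The lower level after MED23 loss was measured again in 2 further experiments that share no libraries with the first. With the empty vector, SLC7A5 fell from 628, 593 and 608 to 352, 361 and 333 CPM (-0.81 ± 0.036, adjusted p = 1.2e-17) and SLC3A2 from 233, 222 and 233 to 138, 149 and 136 CPM (-0.71 ± 0.038, adjusted p = 1.3e-15). In the HDAC3 experiment SLC7A5 fell from 595, 559.5 and 585 to 414, 408 and 383 CPM (-0.53 ± 0.049, adjusted p = 1.6e-08) and SLC3A2 from 208, 204 and 217 to 159, 161 and 154 CPM (-0.41 ± 0.043, adjusted p = 9.4e-08). No groups overlapped.

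HDAC3 loss raised both members of the pair. SLC7A5 reached 919, 914 and 843 CPM in HDAC3 knockout cells (0.62 ± 0.049, adjusted p = 5.9e-10) and 1050.4, 1000.0 and 919.7 CPM in double knockout cells. SLC3A2 reached 340.2, 345 and 324 CPM (0.68 ± 0.043, adjusted p = 1.2e-11) and 377, 361 and 352 CPM. Starting from MED23 knockout cells the rise was 1.30 ± 0.050, adjusted p = 4.5e-15 for SLC7A5 and 1.20 ± 0.043, adjusted p = 1.7e-15 for SLC3A2, or 2.46-fold and 2.30-fold. The rise was larger there than in control cells, by an interaction of 0.68 ± 0.069, adjusted p = 1.7e-07 for SLC7A5 and 0.52 ± 0.060, adjusted p = 9.6e-07 for SLC3A2. Double knockout cells thus lay above control, at 0.77 ± 0.049, adjusted p = 3.7e-11 and 0.79 ± 0.043, adjusted p = 2.3e-12. HDAC3 counts themselves fell to 51.0% in control cells and to 58.6% in MED23 knockout cells (interaction 0.20 ± 0.070, adjusted p = 0.0476). SOX10 counts moved by 0.069 ± 0.051 (adjusted p = 0.307) and 0.78 ± 0.052 (adjusted p = 5.5e-11) with HDAC3 loss in these cells. The part of these differences in the interactions with HDAC3 loss was not tested.

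SOX10 overexpression changed the pair in opposite directions by genotype. In control cells it lowered SLC7A5 to 496, 457 and 473 CPM (-0.36 ± 0.035, adjusted p = 2.5e-09) and SLC3A2 to 200.3, 186 and 190.0 CPM (-0.26 ± 0.037, adjusted p = 3.4e-06). In MED23 knockout cells it raised SLC7A5 to 406, 397 and 382 CPM (0.18 ± 0.036, adjusted p = 1.5e-04) and SLC3A2 to 153, 163 and 165 CPM (0.19 ± 0.038, adjusted p = 1.7e-04). The interaction was 0.54 ± 0.050, adjusted p = 2.6e-09 for SLC7A5 and 0.45 ± 0.053, adjusted p = 3.0e-07 for SLC3A2. SOX10 counts rose by 0.19 ± 0.030 in control cells and 0.80 ± 0.030 in MED23 knockout cells (adjusted p = 7.5e-06 and 4.6e-19). With the overexpression vector they were still lower in MED23 knockout cells than in control cells (-0.48 ± 0.030, adjusted p = 5.0e-14). The part of these SOX10 differences in the interactions was not tested.

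In the order of the 14 Mediator group means, 11 of 13 neighbours overlapped for SLC7A5 and 8 of 13 for SLC3A2, with the highest mean 1.78 and 1.69 times the lowest. In the SOX10 and HDAC3 experiments no neighbours in the order overlapped for either gene. The ratio of SLC7A5 to SLC3A2 per kilobase varied little. Group means lay between 2.94 and 3.36 in the Mediator experiment, 2.69 and 2.90 in the SOX10 experiment and 2.78 and 3.02 in the HDAC3 experiment. Over the 14 group means of the Mediator experiment, Pearson's r of log2 CPM was 0.978 for the 2 genes. The 14 means come from 1 experiment and 2 guides share a target, so the value is a description. SLC7A5 also has annotated pseudogene copies: SLC7A5P1 was at 0.577 ± 0.0932 CPM in control cells in DMSO, and how reads shared with it were counted is not given in the sources used here.

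**Figure D3:**
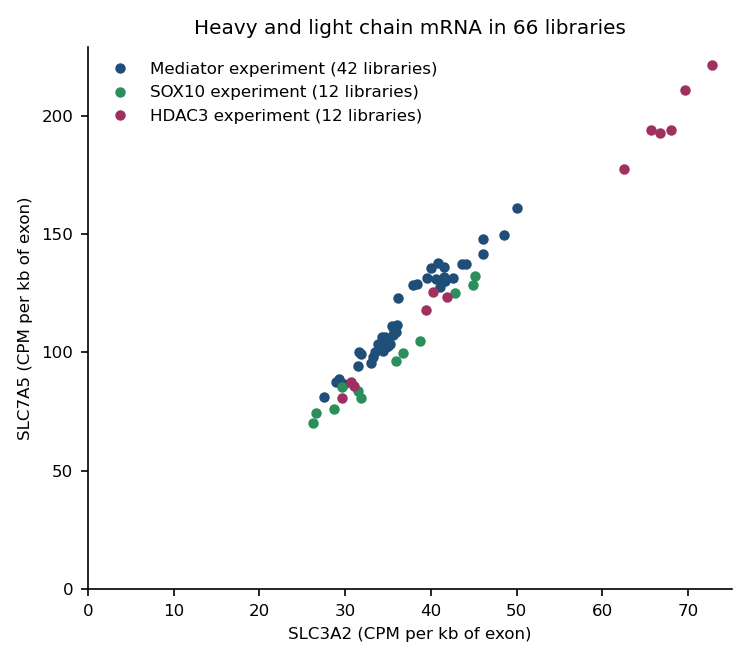
SLC7A5 against SLC3A2, both in CPM per kilobase of exon with axes from 0, in 66 libraries coloured by experiment. The points lie near 1 line through the origin, with group means of the ratio between 2.69 and 3.36, and the HDAC3 and double knockout libraries form the upper end.

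Because the pair moved together, the RefSeq bases just before their starts are shown (GRCh38.p14, 250 bases each, 5′ to 3′ on the gene's strand). The SLC7A5 stretch is chr16:87869508-87869757 and capitals mark the E-box CACGTG. The SLC3A2 stretch is chr11:62881449-62881698, before 1 of its 3 RefSeq starts, and capitals mark the match to TGACNNNGC. The windows of its other starts held no match to any of the 3 motifs. Which start these cells use was not tested.
SLC7A5: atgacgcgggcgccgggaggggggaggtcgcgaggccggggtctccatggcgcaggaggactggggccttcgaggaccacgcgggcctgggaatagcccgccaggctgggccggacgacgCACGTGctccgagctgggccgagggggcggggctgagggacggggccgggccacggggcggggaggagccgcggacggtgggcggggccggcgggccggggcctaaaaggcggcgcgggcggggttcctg
SLC3A2: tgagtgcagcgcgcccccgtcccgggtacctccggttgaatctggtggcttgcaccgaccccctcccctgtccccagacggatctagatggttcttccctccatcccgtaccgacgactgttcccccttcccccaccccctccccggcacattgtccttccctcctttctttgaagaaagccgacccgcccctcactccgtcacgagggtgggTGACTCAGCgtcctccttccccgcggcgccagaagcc
SLC7A5 also had a match to TGACNNNGC that spans its start, from base -2 to base 7. The E-box was not among the letters of the 3 SLC3A2 windows, nor was TGATGNAA among those of the SLC7A5 window.

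SLC7A8 (ENSG00000092068, chromosome 14, 23125295 to 23183674, minus strand), a light chain that exchanges small and large neutral amino acids, had the largest change of the 8 both with vemurafenib and with HDAC3 loss in control cells. With vemurafenib it rose in control cells from 3.31, 2.98 and 3.23 to 30.3, 27.6 and 30.5 CPM, 9.30-fold (3.22 ± 0.093, adjusted p = 4.3e-33). Knockout of each subunit held the drug level lower. MED12 knockout libraries in the drug had 7.64, 7.69, 8.43, 7.14, 8.23 and 7.26 CPM (-1.93 ± 0.069, adjusted p = 4.1e-29). MED19 knockout libraries had 8.51, 9.14 and 7.38 CPM with guide 1 and 11.9, 11.6 and 13.0 with guide 2 (-1.55 ± 0.069, adjusted p = 1.7e-24). MED23 knockout libraries had 14.2, 15.4, 14.6, 15.1, 12.1 and 14.2 CPM (-1.05 ± 0.070, adjusted p = 4.7e-18). All 18 knockout libraries lay below the 3 control libraries in the drug, and for MED19 the 2 guides did not overlap. Of 13 neighbouring groups in the order of means, 8 overlapped.

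In DMSO the knockouts differed in direction, with SLC7A8 higher after loss of MED12 (0.29 ± 0.086, adjusted p = 0.00317) or MED23 (0.37 ± 0.086, adjusted p = 4.0e-04) and lower after loss of MED19 (-0.39 ± 0.090, adjusted p = 3.2e-04). By group means the rise with the drug was 9.28-fold in control cells, 2.00-fold and 1.98-fold with the MED12 guides, 3.24-fold and 5.39-fold with the MED19 guides, and 3.61-fold and 3.34-fold with the MED23 guides. Interactions were -2.22 ± 0.11, adjusted p = 9.2e-23 for MED12, -1.16 ± 0.12, adjusted p = 9.5e-12 for MED19 and -1.42 ± 0.11, adjusted p = 4.5e-15 for MED23, again against shared control libraries. By guide the MED19 interaction was -1.52 with guide 1 and -0.80 with guide 2 (adjusted p = 1.9e-13 and 1.1e-05).

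HDAC3 loss raised SLC7A8 from 1.82, 1.40 and 1.27 to 24.0, 23.8 and 24.7 CPM in control cells (4.01 ± 0.12, adjusted p = 3.4e-17). This was 16.1-fold, where 42.1% of the 21139 genes tested changed and 8.19% changed at least 2-fold. In MED23 knockout cells the level went from 2.52, 2.42 and 2.05 to 2.95, 3.70 and 2.93 CPM (0.45 ± 0.13, adjusted p = 0.00727). The groups did not overlap, but the call was lost without replicate 2 of the double knockout (0.33, adjusted p = 0.0716). The interaction was -3.56 ± 0.17, adjusted p = 1.5e-12. HDAC3 counts fell less in MED23 knockout cells, as given above, and the part of this in the interaction was not tested. MED23 loss alone raised SLC7A8 in this experiment (0.64 ± 0.13, adjusted p = 7.0e-04).

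SOX10 overexpression raised SLC7A8 in control cells from 3.81, 3.76 and 4.08 to 7.49, 7.77 and 7.12 CPM (0.94 ± 0.10, adjusted p = 2.7e-08). In MED23 knockout cells it went from 4.80, 4.47 and 4.60 to 4.29, 3.48 and 4.68 CPM, which overlapped (-0.16 ± 0.11, adjusted p = 0.276). The interaction was -1.10 ± 0.15, adjusted p = 4.2e-06. In each of the 3 experiments the rise in SLC7A8 was thus smaller where MED23 was lost, by the interaction tests given. The levels in the SOX10 experiment rest on as few as 97 counts in a library.

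**Figure D4:**
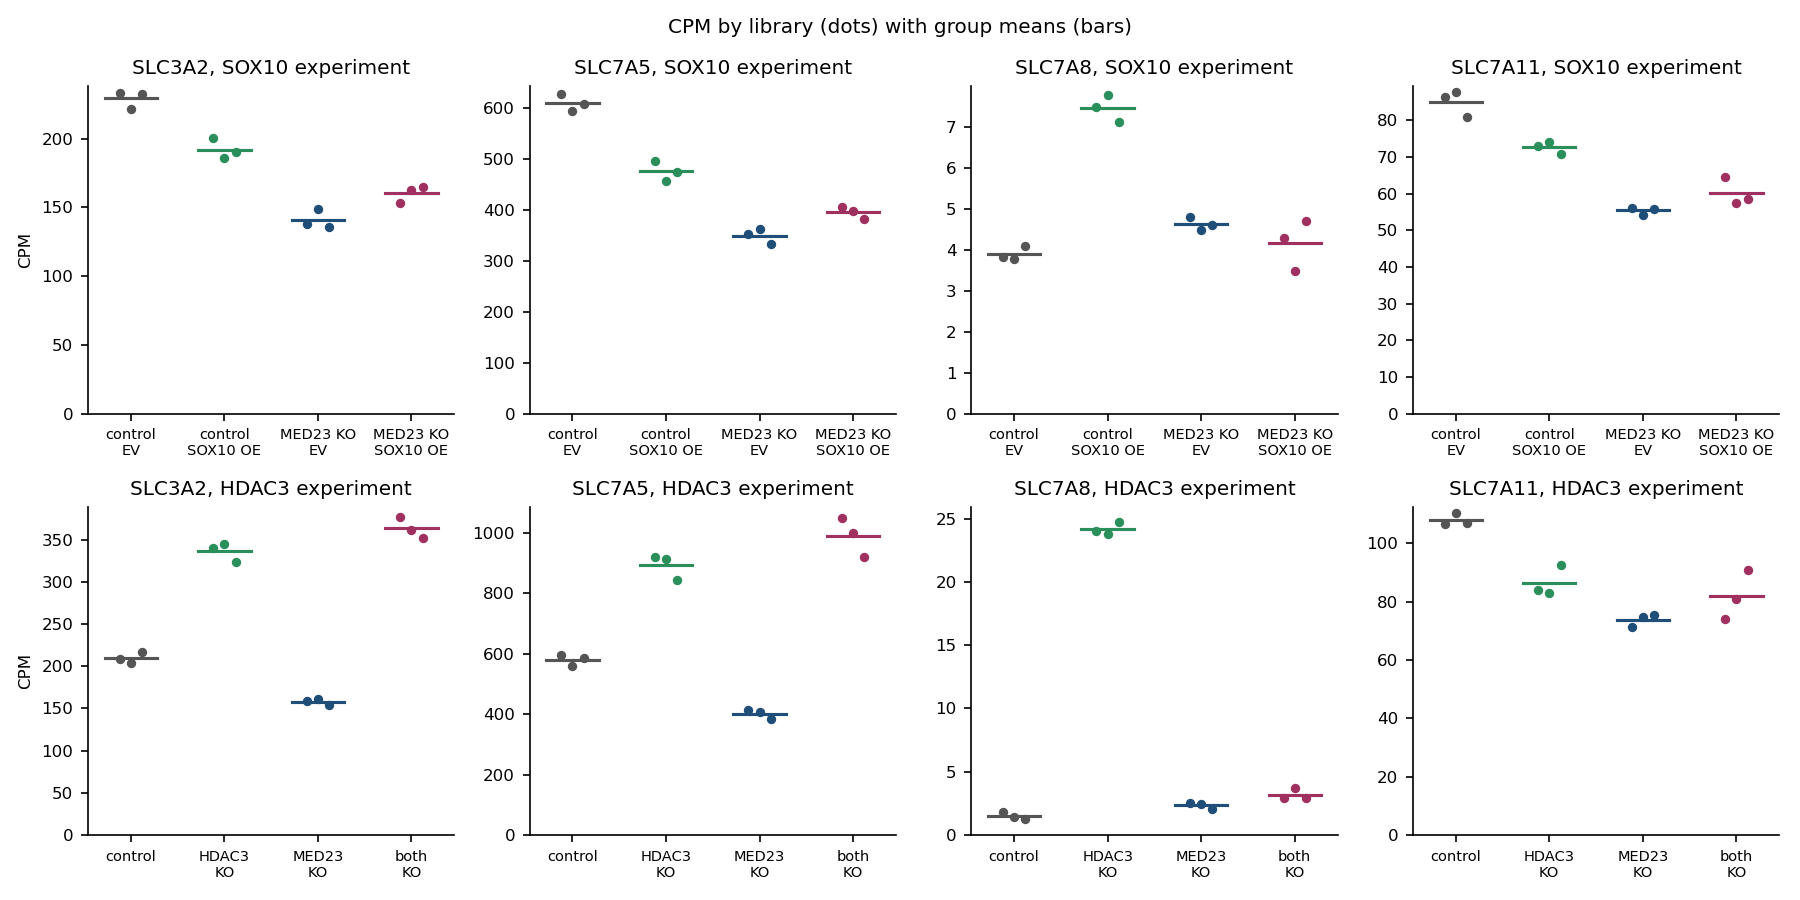
CPM (axes from 0) of SLC3A2, SLC7A5, SLC7A8 and SLC7A11 in the 12 libraries of the SOX10 experiment (top) and the 12 of the HDAC3 experiment (bottom); dots are libraries and bars means of 3. SLC7A8 stands high in HDAC3 knockout cells and not in double knockout cells, while SLC3A2 and SLC7A5 are high in both.

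SLC7A11, the cystine transporter (ENSG00000151012, chromosome 4, 138164097 to 138242349, minus strand), was lowered both by the drug and by loss of MED12 or MED23. Control libraries had 107, 99.7 and 104 CPM in DMSO and 35.9, 35.4 and 34.7 CPM in vemurafenib (-1.55 ± 0.048, adjusted p = 5.3e-32). In DMSO, MED12 knockout libraries had 45.9, 45.7, 44.9, 38.4, 47.4 and 42.6 CPM (-1.23 ± 0.039, adjusted p = 3.5e-31) and MED23 knockout libraries 64.5, 70.2, 66.3, 66.5, 60.3 and 63.8 CPM (-0.66 ± 0.039, adjusted p = 6.6e-20). None overlapped the control libraries. MED19 knockout libraries had 105, 102, 102, 105, 106 and 103 CPM, which overlapped them (0.0057 ± 0.039, adjusted p = 0.933; 95% interval -0.071 to 0.083).

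In vemurafenib, MED23 knockout libraries had 12.1, 13.7, 12.7, 14.3, 12.5 and 12.8 CPM of SLC7A11 (-1.44 ± 0.044, adjusted p = 1.8e-31). MED12 knockout libraries had 14.0 to 15.4 CPM (-1.26 ± 0.042, adjusted p = 2.0e-30) and MED19 knockout libraries 21.1 to 25.1 CPM (-0.62 ± 0.042, adjusted p = 9.3e-18). All 18 lay below the control libraries in the drug, and the MED12 and MED23 ranges overlapped. The drug left 34.2% of the DMSO level in control cells, 33.1% and 33.9% with the MED12 guides, 20.7% and 23.7% with the MED19 guides, and 19.2% and 20.7% with the MED23 guides. The interaction passed for MED19 (-0.63 ± 0.058, adjusted p = 9.0e-13) and MED23 (-0.78 ± 0.060, adjusted p = 2.3e-15). For MED12 it was -0.029 ± 0.058, adjusted p = 0.727, with a 95% interval of -0.14 to 0.085.

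MED23 loss lowered SLC7A11 in the other experiments too, from 86.3, 87.7 and 80.9 to 56.2, 54.2 and 55.9 CPM with the empty vector (-0.62 ± 0.042, adjusted p = 4.1e-13) and from 107, 110.3 and 107 to 71.2, 74.6 and 75.5 CPM in the HDAC3 experiment (-0.55 ± 0.060, adjusted p = 2.1e-07). SOX10 overexpression lowered it in control cells (-0.23 ± 0.041, adjusted p = 9.0e-05) and raised it slightly in MED23 knockout cells (0.12 ± 0.043, adjusted p = 0.0297), a call that was lost with DESeq2's Wald test (adjusted p = 0.0529), without replicates 2 or 3 of MED23 knockout with the empty vector (0.10 and 0.12, adjusted p = 0.11 and 0.0569) and without replicate 1 with SOX10 (0.065, adjusted p = 0.214). The interaction was 0.34 ± 0.060, adjusted p = 1.0e-04. HDAC3 loss lowered it in control cells (-0.32 ± 0.060, adjusted p = 1.5e-04). In MED23 knockout cells it was 0.15 ± 0.060, adjusted p = 0.0517, and 0.15 with an adjusted p of 0.0139 in a fit with replicate number as a block, since same-numbered libraries deviated together in this comparison. It also passed without the low-count filter (adjusted p = 0.038), with DESeq2's size factors (0.0496) or Wald test (0.0483), and without replicate 1 of the double knockout (0.22, adjusted p = 0.00567). The interaction with HDAC3 loss was 0.47 ± 0.085, adjusted p = 2.8e-04. SLC7A11-AS1, on the opposite strand over 8.97% of the exon bases of SLC7A11, was at 0.122 ± 0.0267 CPM in control cells in DMSO.

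SLC7A6 (ENSG00000103064, chromosome 16, 68264516 to 68301823, plus strand) and SLC7A7 (ENSG00000155465, chromosome 14, 22773222 to 22829820, minus strand) exchange cationic for neutral amino acids as light chains of SLC3A2. SLC7A6 fell with vemurafenib from 34.0, 32.8 and 32.9 to 19.8, 18.4 and 18.6 CPM (-0.81 ± 0.042, adjusted p = 1.0e-22). MED12 loss raised it in DMSO (0.21 ± 0.035, adjusted p = 9.1e-07) and in the drug (0.40 ± 0.037, adjusted p = 1.7e-13), and MED19 loss lowered it in both (-0.17 ± 0.035, adjusted p = 1.1e-04 and -0.29 ± 0.038, adjusted p = 7.1e-09). MED23 loss gave -0.0073 ± 0.035, adjusted p = 0.909 in DMSO and -0.17 ± 0.038, adjusted p = 2.6e-04 in the drug. HDAC3 loss raised it by 0.18 ± 0.055 in control cells (adjusted p = 0.0112), a call lost without the low-count filter (adjusted p = 0.0862). In MED23 knockout cells HDAC3 loss raised it by 0.21, a call kept in all 11 alternatives (adjusted p up to 0.0231). SLC7A6OS lies on the opposite strand over 44.43% of the exon bases of SLC7A6 and stood at 6.41 ± 0.581 CPM, and since the strand setting of the counting is not given in the sources used here, SLC7A6 values are uncertain.

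SLC7A7 was near the lower limit of these data. It rose with vemurafenib from 0.479, 0.642 and 0.413 to 2.58, 2.20 and 2.00 CPM in control cells, without overlap (2.14 ± 0.18, adjusted p = 6.2e-15). In DMSO it was higher with MED12 loss (0.74 ± 0.17, adjusted p = 1.5e-04) and MED19 loss (0.48 ± 0.17, adjusted p = 0.0200), with overlapping libraries, and the MED19 call was lost without the low-count filter (adjusted p = 0.0589), with guide 1 alone (0.22, adjusted p = 0.417) and without control replicates 1 or 3 (0.44 and 0.33, adjusted p = 0.0686 and 0.198). In the drug only the MED23 difference passed of the 3 (-0.73 ± 0.14, adjusted p = 2.7e-05), while the interactions were -0.91 ± 0.22, -0.71 ± 0.22 and -0.76 ± 0.23 for MED12, MED19 and MED23 (adjusted p = 3.4e-04, 0.00982 and 0.00643). Without replicate 3 of the control in DMSO the MED19 and MED23 interactions did not pass (-0.55 and -0.60, adjusted p = 0.0726 and 0.0506), nor did they with guide 1 alone (-0.48 and -0.56, adjusted p = 0.152 and 0.113). None of its differences in the SOX10 and HDAC3 experiments passed, where a library held as few as 10 counts.

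Lists of other transporters and of related responses were set beside the 8 genes. For each list the genes named are among the 4 that moved most in at least 1 comparison, and some of their values elsewhere are given for comparison. Of 21 other amino acid transporters tested, 10 fell and 8 rose with vemurafenib, where 30.3% of all genes fell and 35.8% rose. Among those that fell were SLC1A5, the main glutamine carrier (-1.88 ± 0.027, adjusted p = 5.3e-46), and SLC38A1, another glutamine carrier (-2.29 ± 0.034, adjusted p = 2.5e-45). In MED12 knockout cells in the drug SLC38A1 was higher (2.06 ± 0.031, adjusted p = 4.9e-45), as SLC7A1 was. SLC1A4, a neutral amino acid exchanger, was lower with MED12 loss in DMSO (-1.46 ± 0.044, adjusted p = 5.4e-32) and with MED23 loss (-1.07 ± 0.044, adjusted p = 5.2e-26), and higher with HDAC3 loss (1.48 ± 0.051, adjusted p = 4.2e-16). In these comparisons it had the same signs as SLC7A5 and SLC3A2, and its value with vemurafenib is not given. These genes are examples from the 21, and counts of the 21 in the knockout comparisons are not given, so the examples do not describe the list. Of the other SLC7 and SLC3 genes, SLC7A4, SLC7A9 and SLC7A10 were the only 3 of 7 tested in the Mediator experiment. SLC7A10 went from 11 to 303 counts over the 3 control libraries with the drug.

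Of 25 genes of the amino acid response, the ATF4-led programme that induces several of these transporters, 15 fell and 6 rose with vemurafenib (30.3% and 35.8% of all genes). MTHFD2, a mitochondrial folate enzyme, fell (-2.41 ± 0.040, adjusted p = 3.3e-43) and ATF3, a stress-induced factor, rose (3.60 ± 0.075, adjusted p = 3.6e-39). HDAC3 loss raised 13 and lowered 4 of the 25 in control cells, and raised 16 and lowered 1 in MED23 knockout cells. Of all genes tested, 21.2% rose and 20.9% fell in the former comparison, and 19.1% rose and 18.9% fell in the latter. CHAC1, which degrades glutathione, rose in both (1.77 ± 0.15 and 1.75 ± 0.16; adjusted p = 2.1e-09 and 1.3e-08), as did DDIT3 (1.36 ± 0.093 and 1.12 ± 0.094; adjusted p = 5.9e-11 and 3.2e-09). The median over the list was 0.17 and 0.19, beside medians near 0 over all genes.

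Of 20 glutathione and NRF2 response genes, 10 fell and 9 rose with vemurafenib (30.3% and 35.8% of all genes). NQO1, an NRF2-induced reductase, fell with the drug (-1.39 ± 0.027, adjusted p = 3.2e-40) and with loss of MED12 (-1.37 ± 0.022, adjusted p = 4.1e-43) or MED23 (-0.58 ± 0.023, adjusted p = 6.2e-27) in DMSO, as SLC7A11 did. TXNRD1, thioredoxin reductase, went the other way from SLC7A11 in MED23 knockout cells, in DMSO (0.77 ± 0.022, adjusted p = 1.5e-32) and in the drug (1.74 ± 0.023, adjusted p = 2.4e-46). HMOX1, haem oxygenase, rose with HDAC3 loss (3.16 ± 0.053, adjusted p = 2.4e-21) where SLC7A11 fell.

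Among 9 known regulators of these transporters, MYC fell with vemurafenib (-3.26 ± 0.099, adjusted p = 4.1e-32) and with loss of MED12 (-1.69 ± 0.072), MED19 (-1.18 ± 0.072) and MED23 (-1.33 ± 0.072) in DMSO (adjusted p = 9.6e-26, 3.8e-19 and 3.3e-21). In the drug MYC was higher in MED12 knockout cells (0.94 ± 0.091, adjusted p = 6.7e-13) and lower in MED19 (-0.95 ± 0.10, adjusted p = 3.8e-11) and MED23 knockout cells (-0.33 ± 0.10, adjusted p = 0.00547). MITF, the melanocyte factor, rose with the drug (1.05 ± 0.035, adjusted p = 1.8e-30) and with HDAC3 loss (1.66 ± 0.054, adjusted p = 1.7e-16), as SLC7A8 did. It was lower in the drug after loss of MED12 (-1.05 ± 0.029, adjusted p = 1.2e-33), MED19 (-0.95 ± 0.029, adjusted p = 5.5e-31) and MED23 (-0.33 ± 0.030, adjusted p = 1.0e-13). MYC and MITF are examples from the 9, and their values in the other comparisons are not given here. The part of these regulators in the transporter changes was not tested.

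The genes most like each transporter over the 14 group means of log2 CPM in the Mediator experiment were also named, as a description. For SLC7A1 these were HSPA8 (r = 0.997), U2AF2 (0.992) and CBX1 (0.992). For SLC7A11 they were ALAS1 (0.991), NFKBIB (0.988) and ITPR3 (0.988), and for SLC7A8 they were GRAMD2B (0.982), COL5A2 (0.978) and ZNF585B (0.977). SLC7A2 was closest to PDCD11 (0.990), TMED2 (0.989) and POLR1B (0.989), and SLC7A6 to ZNF85 (0.989), TMEM165 (0.984) and PLEKHA8 (0.984). SLC7A7 was closest to C6orf89 (0.984), ARHGEF10L (0.984) and HERPUD2 (0.983). SLC7A5 and SLC3A2 varied by less than 1 log2 unit between groups (0.832 and 0.755) and were left out. The 14 means share the drug contrast and their guides, and r was ranked over 12188 genes.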

How the data were processed

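Poly(A) RNA of 66 A375 libraries was measured. The authors deposited 3 tables of raw counts per Ensembl gene, 1 for each experiment. Per the submitters' processing notes bcl2fastq, HISAT2, HTSeq and hg38 were used, with no version, annotation or strand setting given in the sources used here. Genes passed edgeR's filter at a minimum count of 10 and total of 15. Each table was fitted with edgeR 4.0.16 (R 4.3.3), TMM scaling, 1 mean per group and the quasi-likelihood test, with Benjamini-Hochberg adjustment over all genes tested; CPM refer to the scaled library. The fits were also run on counts simulated from their own control means and fitted spread, for 3 comparisons of 2 groups. Changes were set only in genes above a log2 CPM of 2. These runs did not cover interactions, contrasts of both guides, pairing of replicates or changes in genes as low as SLC7A7. Alternatives were no filter, DESeq2 1.42.0 size factors and Wald test, a replicate block, only the groups compared, single guides and leaving out each library. Same-numbered libraries deviated together in every pair (r 0.152 to 0.332) only for HDAC3 loss in MED23 knockout cells. Over the HDAC3 experiment the mean r was 0.214. It was 0.312 for HDAC3 loss in control cells (0.0924 to 0.568) and 0.231 for MED23 loss there (-0.0807 to 0.49). The main fits used no block, so their p-values leave such pairing out. The 8 genes and the lists were chosen with earlier results of these data known. The text names all 8 genes, up to 4 genes per list with the largest change among those that passed, and, per member spanning at least 1 log2 unit, the 3 genes with the highest r among those with a mean log2 CPM of at least 2. Depth limits the precision most for SLC7A7 and SLC7A8, whose lowest libraries held 10 and 97 counts.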

Additional observations from a re-analysis of the deposited data

Results flagged for a closer look

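These results stand out because the effect differed between 2 backgrounds by a test of the difference itself, with an absolute log2 difference of at least 1 (edgeR's quasi-likelihood test, Benjamini-Hochberg adjustment). For SLC7A8 the response to vemurafenib was smaller after loss of MED12 (-2.22 ± 0.11, adjusted p = 9.2e-23), MED19 (-1.16 ± 0.12, adjusted p = 9.5e-12) and MED23 (-1.42 ± 0.11, adjusted p = 4.5e-15), against the same control libraries. With guide 2 alone the MED19 value was -0.80 (adjusted p = 1.1e-05), under the size of 1, and with guide 1 it was -1.52 (adjusted p = 1.9e-13). In MED23 knockout cells SLC7A8 also responded less to SOX10 overexpression (-1.10 ± 0.15, adjusted p = 4.2e-06) and to HDAC3 loss (-3.56 ± 0.17, adjusted p = 1.5e-12), each in libraries of its own experiment. Counts of the altered genes did not change equally in the 2 backgrounds, and protein levels are not known from these data. SOX10 counts rose to 174% of the empty vector level there and to 114% of it in control cells. With the overexpression vector, MED23 knockout cells still had 71.5% of the SOX10 counts of control cells. HDAC3 counts fell to 58.6% there and 51.0% in control cells. The part of this was not tested. For the cationic amino acid transporters, the drop with vemurafenib was smaller after MED12 loss, by 1.53 ± 0.053, adjusted p = 2.4e-29 for SLC7A1 and 1.09 ± 0.081, adjusted p = 2.0e-16 for SLC7A2.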

How the results depend on the processing

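Of the 160 differences of the 8 genes (20 comparisons), 126 kept their direction and side of the threshold in all of their 11 to 25 alternatives, as did all 24 that were 2-fold and past the threshold. The 12 with a sign change in some alternative were past the threshold in none of them. SLC7A11 with MED19 loss in DMSO was -0.0081 without the low-count filter, -0.0094 with size factors, -0.0095 with the Wald test and -0.0059 with guide 1 alone; the SLC7A11 MED12 interaction was 0.013, 0.011 and 0.011 in the first 3, and with guide 1 alone the MED12 interactions of SLC7A5 and SLC3A2 were -0.057 and -0.0078. With 1 library left out, the ranges that cross 0 were those of SLC7A11 with MED19 loss in DMSO (-0.020 to 0.030), SLC7A6 with MED23 loss in DMSO (-0.016 to 0.0085), SLC7A7 with MED23 loss in DMSO (-0.13 to 0.24), the SLC7A5 MED12 interaction (-0.026 to 0.066) and the SLC7A11 MED12 interaction (-0.053 to 0.037). They also included SLC7A7 with SOX10 overexpression in control cells (-0.37 to 0.16), SLC7A7 with MED23 loss and the empty vector (-0.38 to 0.38), the SLC7A6 SOX10 interaction (-0.086 to 0.032), SLC7A1 with MED23 loss and SOX10 overexpression (-0.034 to 0.0013), SLC7A6 with SOX10 overexpression in MED23 knockout cells (-0.048 to 0.071) and SLC7A7 with MED23 loss in the HDAC3 experiment (-0.17 to 0.54). Calls of small differences were lost without single libraries for the MED19 interactions of SLC7A5 and SLC3A2 and the MED23 interaction of SLC7A5 (for example without replicate 2 of the control in DMSO, 0.096, 0.085 and 0.095; adjusted p = 0.147, 0.159 and 0.146), for the MED23 interaction of SLC7A6 (without replicate 1 of the control in vemurafenib, adjusted p = 0.0834), and for SLC7A6 with MED23 loss and SOX10 overexpression (4 of 6 libraries, adjusted p up to 0.235). The same held for SLC7A6 in double knockout cells (5 of 6 libraries, adjusted p up to 0.11), and for the interactions of SLC7A1 with HDAC3 loss (7 of 12, up to 0.14) and SOX10 (2 of 12, up to 0.069). SLC7A1 with HDAC3 loss in control cells passed without the low-count filter (-0.13, adjusted p = 0.0298), with size factors (adjusted p = 0.049), with the Wald test (0.0389) and with the replicate block (-0.11, adjusted p = 0.0115). With the block SLC7A11 with HDAC3 loss in MED23 knockout cells passed too (0.15, adjusted p = 0.0139), and the block changed no other call. By single guides, calls were also lost for the MED19 interaction of SLC3A2 (both guides, adjusted p = 0.0552 and 0.108) and, with guide 2, for the SLC7A5 interactions with MED19 and MED23 (0.145 and 0.216) and the SLC7A6 interaction with MED23 (0.238), while the SLC7A6 interaction with MED19 passed (0.0364). Without the filter, calls were lost for the SLC7A6 interaction with MED23 (adjusted p = 0.106), SLC7A6 in double knockout cells (0.151) and the SLC7A1 interaction with HDAC3 loss (0.157, and 0.0528 with size factors). With only the groups compared, the SLC7A6 interaction with MED23 was lost (adjusted p = 0.0957). So was SLC7A6 with MED23 loss and SOX10 overexpression (0.0693, and 0.0809 with the Wald test). SLC7A6 with MED23 loss and the empty vector passed in that setting (-0.13, adjusted p = 0.037). Counting limits SLC7A7 most, with 10 counts in its lowest library. The causes were not tested.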

Other observations

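Of 22 genes of mTORC1 amino acid sensing, the pathway that reads the leucine and arginine carried by these transporters, 15 rose and 5 fell with vemurafenib in control cells, with a median log2 fold change of 0.26 beside 0.11 over all genes, of which 35.8% rose and 30.3% fell. Of 15 genes of arginine and polyamine metabolism, which uses the substrate of SLC7A1 and SLC7A2, 6 rose and 6 fell, close to those shares. ASS1, which makes argininosuccinate on the way to arginine, rose (2.96 ± 0.20, adjusted p = 5.3e-18; edgeR's quasi-likelihood test, Benjamini-Hochberg adjustment). ODC1 and AMD1, enzymes of polyamine synthesis, fell (-1.73 ± 0.050 and -1.83 ± 0.030; adjusted p = 2.8e-33 and 4.0e-43).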
